A study of Homo sapiens with 18 samples.

Results

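Keratins are the intermediate filament proteins of epithelial cells, and 7 keratin genes grouped as keratins of simple epithelium (KRT7, KRT8, KRT18, KRT19, KRT20, KRT80 and KRT81) are described here in a pair of human lung adenocarcinoma cell lines. They were chosen by name and found by Ensembl identifier, and 7 of 7 were present among the 60399 gene identifiers that the H1650 and PC9 count tables share (KRT7 ENSG00000135480, KRT8 ENSG00000170421, KRT18 ENSG00000111057, KRT19 ENSG00000171345, KRT20 ENSG00000171431, KRT80 ENSG00000167767, KRT81 ENSG00000205426). H1650 and PC9 carry an activating EGFR mutation, and the series holds poly-A selected RNA of brain metastatic derivatives of both. Per line there were 3 libraries of BrM cells under a control condition, 3 of Tr-BrM cells under a control condition, and 3 of Tr-BrM cells labelled S100A9-inh. No animal, host tissue or dose is named, and neither the meaning of Tr nor the means of inhibiting S100A9 is stated. Each group is thus a derivative of 1 line, and whether it is a clone or a pool is not stated either. Nothing says whether the 3 libraries of a group were separate cultures, so every p-value measures only the spread between these libraries, which may be technical.

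A keratin filament is built from obligate pairs of a type I (acidic) and a type II (basic) protein, and a keratin without a partner is degraded. KRT8 (type II) and KRT18 (type I) are the first pair made by simple, single-layered epithelia such as that of the lung alveolus, and KRT7 (type II) and KRT19 (type I) are added in glands and ducts. KRT20 is a type I keratin of the gut lining, urothelium and Merkel cells. KRT80 and KRT81 carry the name of the group less well: both are type II keratins, but KRT81 is known as a keratin of the hair cortex, and KRT80 is found in many epithelia. Basal and squamous epithelia use other pairs, among them KRT5 with KRT14 or KRT15 and KRT6A with KRT16 or KRT17.

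Members of 1 type resemble each other more than members of the other type. Identity over the whole protein, from translated GENCODE 29 transcripts, was 35.6 to 60.8% among the type II members, 43.2 to 45.9% among the type I members and 21.7 to 27.0% between types. KRT7 and KRT8 were identical at 60.8% of the aligned positions, KRT8 and KRT18 at 27.0%, and KRT18 and KRT19 at 43.2%.

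Sequence shared with other genes, through likeness or through overlapping exons, bears on the counts. The 50-base stretches of each member's principal transcript were sought, on either strand, in the transcripts of other genes. Of these stretches, 52.5% were found there for KRT18, 44.6% for KRT81, 39.7% for KRT8, 10.8% for KRT7, 1.79% for KRT19 and 0.42% for KRT80. Stretches shared with KRT8 itself made up 23.8% of those of KRT18, and those shared with KRT86 made up 38.4% of those of KRT81. For KRT7, 10.4% were shared with a gene whose exons overlap it on the opposite strand. KRT8 and KRT18 also share stretches with many processed pseudogenes. The 51 pseudogene rows of KRT8 and the 68 of KRT18 held at most 2.17% of their parent gene's counts in any library. How reads matching several genes were counted is not given, so this share cannot show whether the parent genes lost reads. KRT8 and KRT18 are neighbours on opposite strands of chromosome 12 (GRCh38 positions 52897187 to 52949954 and 52948871 to 52952901), and 525 bases of their annotated exons overlap, 16.3% of those of KRT18. Whether strand was used in counting is not given, so reads in that overlap cannot be assigned with certainty. How many of the 50-base stretches shared by KRT8 and KRT18 lie in that overlap was not counted. KRT7 (52232520 to 52252186, forward strand), KRT80 (52168996 to 52192000, reverse) and KRT81 (52285913 to 52291534, reverse) lie in the same type II cluster, where the model of KRT86 spans KRT81, and KRT19 (41523617 to 41528308, reverse) and KRT20 (40875941 to 40885227, reverse) in the type I cluster of chromosome 17.

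Total counts per library were 17403497 to 27112362 in H1650 and 18174516 to 21748732 in PC9. S100A9 RNA was lower in the S100A9-inh libraries than in both other groups of each line, though the labels do not say that its RNA should change. S100A9 read 95.19, 88.21 and 105.1 CPM (counts scaled to library size, with TMM factors within a line) in the H1650 libraries labelled S100A9-inh, 336.2, 292.9 and 292.2 in the Tr-BrM controls of that line and 216.8, 206.3 and 198.9 in its BrM controls. In PC9 the S100A9-inh libraries read 33.87, 30.43 and 35.45 CPM, the Tr-BrM controls 738.8, 738.2 and 759.1, and the BrM controls 118.7, 126.6 and 119.7. The library that stood furthest apart from its group was PC9 S100A9-inh replicate 1. It differed from replicates 2 and 3 by a chi-square per degree of freedom of 5.94 and 5.37, against 1.998 between the other two. Lesser gaps were seen for H1650 S100A9-inh replicate 2 (3.58 and 3.03 against 2.16) and H1650 Tr-BrM control replicate 1 (2.89 and 3.05 against 2.04). PC9 Tr-BrM control replicate 1 had 2.89 and 2.62 against 1.75. The log2 changes of the 6 tested keratins under S100A9-inh in PC9 are given without PC9 S100A9-inh replicate 1 as well. Leaving it out also refits the spread used for every comparison of the line. The edgeR adjusted p of KRT7 between PC9 Tr-BrM and BrM controls, which do not include it, then went from 1.24e-15 to 6.1e-43. A smaller adjusted p without that library is thus no measure of a stronger change. "Rose", "fell", "higher" and "lower" are used only where the Benjamini-Hochberg adjusted p of the edgeR quasi-likelihood F test was under 0.05, with adjustment over the 17937 genes tested in H1650 or the 16169 tested in PC9. Changes are log2 fold changes ± SE, with 3 libraries in each group.

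Both lines had high levels of these keratins. Together the 7 genes held 1.01% of all counts in the H1650 BrM controls and 2.61% in the PC9 BrM controls. KRT8 ranked 4 to 6 among all genes by CPM in the H1650 groups and 2 or 3 in the PC9 groups, and KRT7, KRT18 and KRT19 ranked between 13 and 128. KRT80 ranked between 189 and 813. KRT81 and KRT20 were near the floor. Compared per kilobase of merged exons in the H1650 BrM controls, the level of KRT8 was 763 ± 2.4 CPM per kb (SD, n = 3), of KRT19 570 ± 4.61, of KRT18 462.5 ± 10.6, of KRT7 391 ± 10.5 and of KRT80 101 ± 0.317. In the PC9 BrM controls the same order held, at 1995 ± 16.4, 1774 ± 7.73, 1269 ± 16.8, 894 ± 19.5 and 103 ± 0.94 CPM per kb. KRT8 and KRT80 stayed first and last with the length of the principal transcript in place of merged exons, but KRT18 then came before KRT19 in the H1650 BrM controls, while the order in the PC9 BrM controls was the same. The epithelial markers EPCAM, CDH1 and CLDN4 were at 314 ± 12.3, 373 ± 2.29 and 499 ± 4.81 CPM in the same PC9 libraries. In the H1650 BrM controls they were at 210 ± 2.59, 929 ± 13.2 and 368 ± 3.4 CPM. They are 3 of 8 genes listed for lung epithelium. The median gene of that list was at 0.144 CPM in the PC9 and 0.195 in the H1650 BrM controls, so others of it were near the floor.

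**Figure D1:**
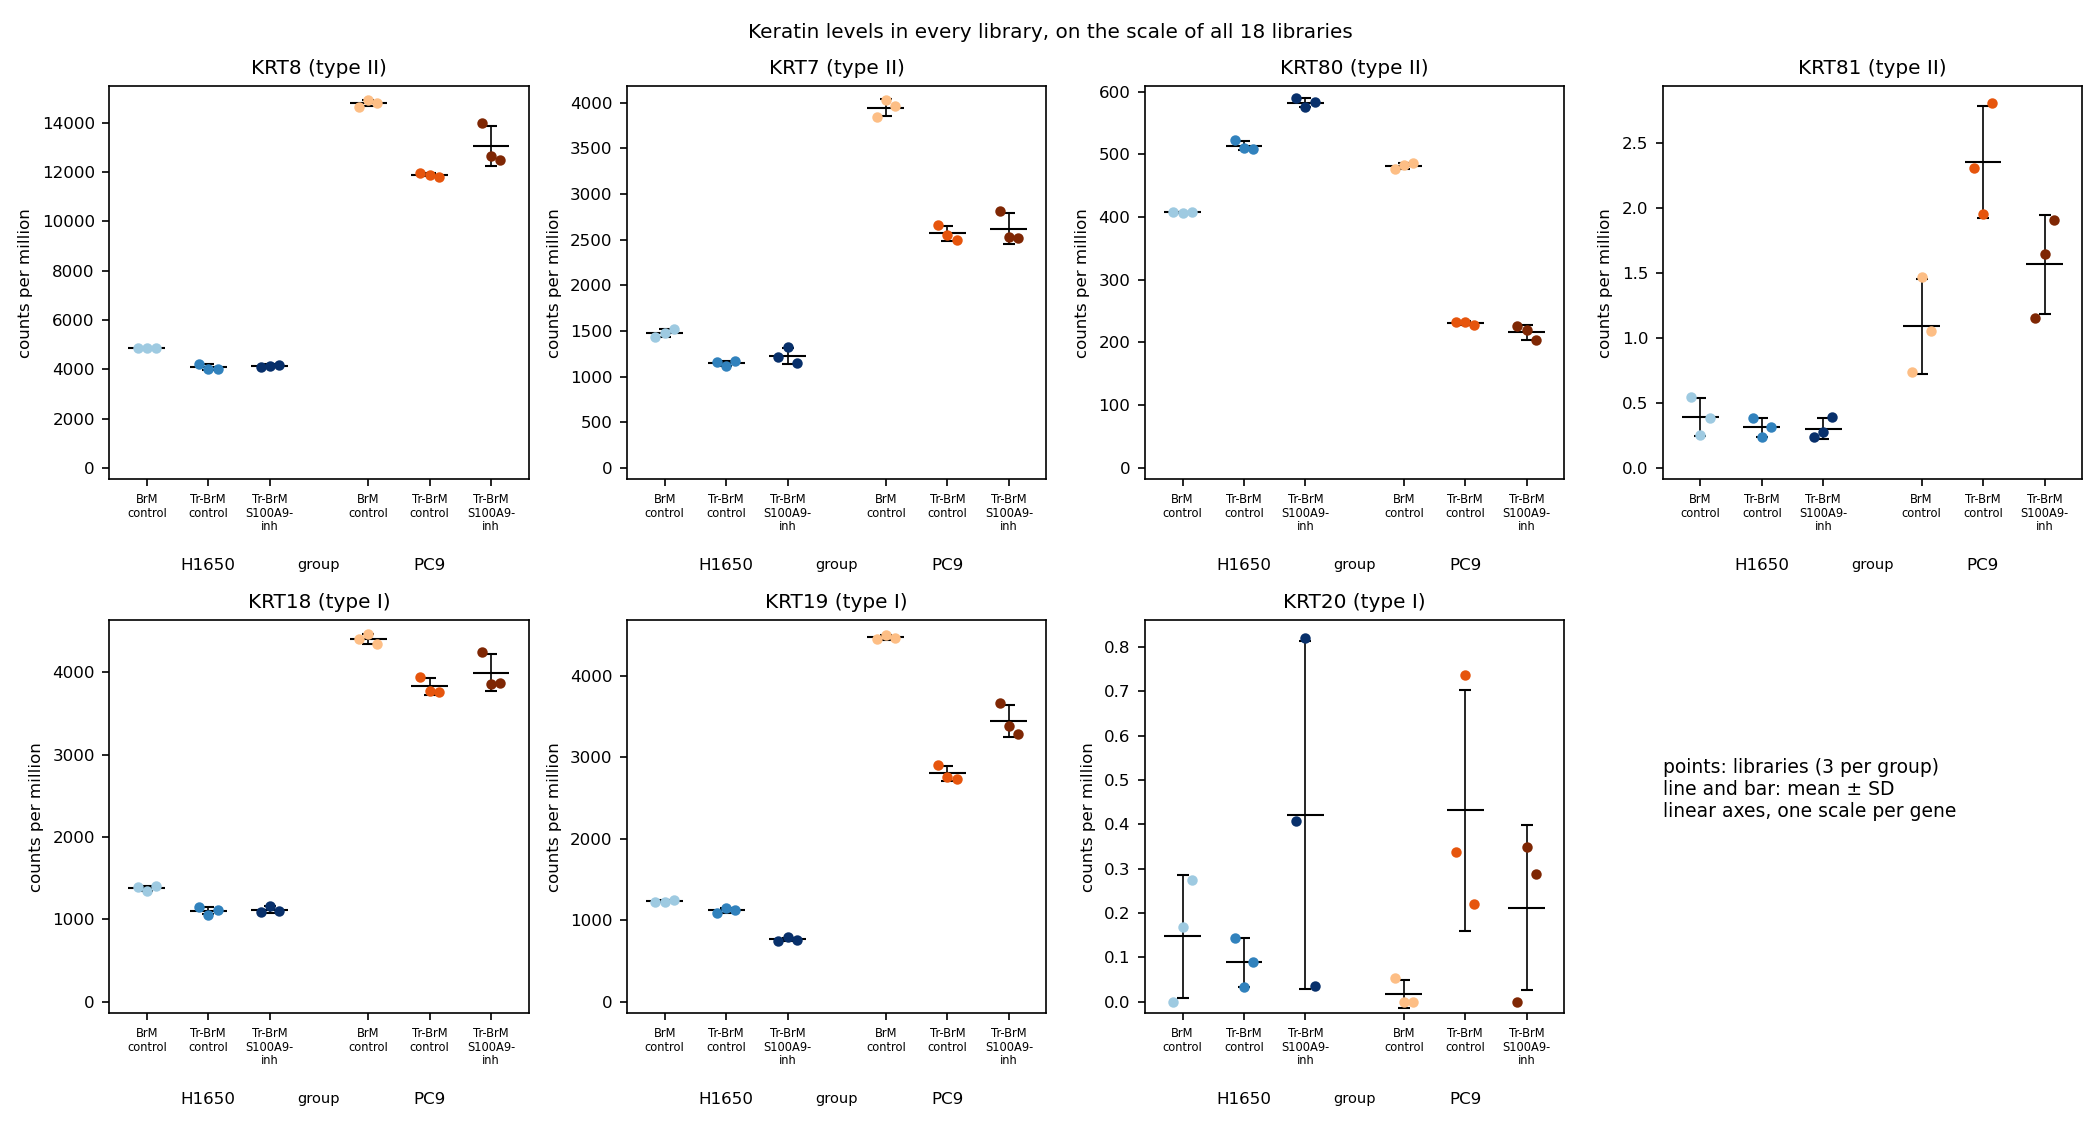
Level of each keratin in every library, in CPM on 1 scale over all 18 libraries (vertical axes linear, one scale per gene; horizontal axis the 3 groups of H1650 and of PC9); points are libraries, lines and bars mean ± SD (n = 3). KRT8, KRT7, KRT18 and KRT19 are higher in every PC9 library than in any H1650 library, KRT80 crosses between the lines, and KRT81 and KRT20 stay under 3 CPM.

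KRT8, the common type II partner, read 5246, 5272 and 5241 CPM in the H1650 BrM controls, 4558, 4309 and 4303 in the Tr-BrM controls and 4395, 4485 and 4521 under S100A9-inh. Every BrM library was above every Tr-BrM library, while the control and S100A9-inh libraries of Tr-BrM overlapped. KRT8 fell by 0.26 ± 0.0269 from BrM to Tr-BrM controls (adjusted p = 1.55e-09) and differed by 0.03 ± 0.0268 between S100A9-inh and Tr-BrM controls (adjusted p = 0.538).
In PC9, KRT8 read 13610, 13840 and 13740 CPM in the BrM controls, 11080, 10990 and 10980 in the Tr-BrM controls and 12940, 11730 and 11650 under S100A9-inh. The 3 groups did not overlap, and the S100A9-inh libraries lay between the others. KRT8 fell by 0.32 ± 0.0309 in the Tr-BrM controls (adjusted p = 2.74e-10) and rose by 0.14 ± 0.0309 under S100A9-inh against them (adjusted p = 0.000447). Without the PC9 S100A9-inh library that stood apart, this last difference was 0.09, with an adjusted p of 2.73e-05.

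KRT7, a type II keratin of glandular and ductal epithelium used by pathologists to tell lung from gut adenocarcinoma, read 1555, 1601 and 1640 CPM in the H1650 BrM controls, 1248, 1193 and 1259 in the Tr-BrM controls and 1310, 1429 and 1245 under S100A9-inh. The BrM libraries were the highest, and the Tr-BrM groups overlapped. KRT7 fell by 0.37 ± 0.0365 in the Tr-BrM controls (adjusted p = 4.39e-10). It rose by 0.11 ± 0.0364 under S100A9-inh (adjusted p = 0.0267), a call lost in 5 of 17 alternatives, among them those without S100A9-inh replicate 2 (0.05, adjusted p = 0.232) or Tr-BrM control replicate 2 (0.08, adjusted p = 0.154) and with DESeq2 (0.10, adjusted p = 0.188).
In PC9, KRT7 read 3574, 3731 and 3676 CPM in the BrM controls, 2463, 2360 and 2321 in the Tr-BrM controls and 2600, 2343 and 2348 under S100A9-inh. All Tr-BrM libraries, with or without S100A9-inh, were below all BrM libraries. KRT7 fell by 0.62 ± 0.0353 in the Tr-BrM controls (adjusted p = 1.24e-15), and the difference under S100A9-inh was 0.03 ± 0.0352 (adjusted p = 0.511). Without S100A9-inh replicate 1 it was -0.02 (adjusted p = 0.477).

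KRT80, the type II keratin of many epithelia, was higher in Tr-BrM than in BrM in H1650 and lower in PC9. It read 441.7, 440.0 and 439.0 CPM in the H1650 BrM controls, 564.3, 546.9 and 548.7 in the Tr-BrM controls and 636.4, 622.2 and 630.2 under S100A9-inh, and the 3 groups did not overlap. KRT80 rose by 0.33 ± 0.0284 in the Tr-BrM controls (adjusted p = 3.31e-11) and by a further 0.19 ± 0.028 under S100A9-inh (adjusted p = 5.96e-06).
In PC9, KRT80 read 442.8, 446.9 and 451.0 CPM in the BrM controls, 215.6, 215.4 and 211.2 in the Tr-BrM controls and 208.4, 204.2 and 189.2 under S100A9-inh. Here the Tr-BrM libraries lay below the BrM libraries, again with no overlap between the 3 groups. KRT80 fell by 1.06 ± 0.0382 in the Tr-BrM controls (adjusted p = 1.38e-20). The further fall of 0.09 ± 0.0388 under S100A9-inh (adjusted p = 0.0440) did not pass in 11 of the 16 alternatives tried, with adjusted p from 0.00189 to 0.252 over them, the lowest of these (-0.12) being without S100A9-inh replicate 1.

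KRT81, the hair cortex keratin, was rare. H1650 libraries held 6 to 13 counts of it, and it did not pass the filter on low counts there. In PC9 it had 14, 28 and 21 counts in the BrM controls, 41, 37 and 51 in the Tr-BrM controls and 22, 33 and 33 under S100A9-inh. The Tr-BrM controls were above both other groups. KRT81 rose by 1.11 ± 0.284 in the Tr-BrM controls (adjusted p = 0.00125), and the difference of -0.59 ± 0.269 under S100A9-inh did not pass (adjusted p = 0.0672; -0.41 and 0.247 without S100A9-inh replicate 1). Its counts cannot be separated with certainty from those of its relatives KRT86, KRT87P, a pseudogene, and KRT83, with which it shares 38.4%, 9.04% and 6.22% of its 50-base stretches. In PC9 KRT86 read 2.05 ± 0.351 CPM in BrM controls, 2.70 ± 0.577 in Tr-BrM controls and 2.03 ± 0.415 under S100A9-inh, and KRT83 between 0.120 and 0.148 CPM on average, while KRT87P had 226, 158 and 138 counts summed over the 3 libraries of BrM controls, Tr-BrM controls and S100A9-inh. With the rows of KRT81, KRT83 and KRT86 summed, KRT87P left out, the rise was 0.64 (adjusted p = 0.00108) and the fall under S100A9-inh passed, at -0.47 (adjusted p = 0.0152).

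KRT18, the type I partner of KRT8, read 1506, 1449 and 1510 CPM in the H1650 BrM controls, 1239, 1133 and 1205 in the Tr-BrM controls and 1177, 1260 and 1190 under S100A9-inh. As for KRT8, the BrM libraries were the highest and the Tr-BrM groups overlapped. KRT18 fell by 0.32 ± 0.0329 in the Tr-BrM controls (adjusted p = 1.22e-09) and differed by 0.02 ± 0.0328 under S100A9-inh (adjusted p = 0.700).
In PC9, KRT18 read 4085, 4135 and 4027 CPM in the BrM controls, 3652, 3487 and 3494 in the Tr-BrM controls and 3925, 3573 and 3606 under S100A9-inh. The Tr-BrM groups overlapped and lay below the BrM controls. KRT18 fell by 0.20 ± 0.0327 in the Tr-BrM controls (adjusted p = 3.2e-06) and differed by 0.06 ± 0.0327 under S100A9-inh (adjusted p = 0.110). That difference passed with upper quartile scaling (0.08, adjusted p = 0.0431), with library size alone (0.09, adjusted p = 0.00793) and without S100A9-inh replicate 2 (0.09, adjusted p = 0.0417). Without S100A9-inh replicate 1 it was 0.02 (adjusted p = 0.473).

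KRT19, the smallest keratin, which lacks most of the tail that other keratins carry, fell under S100A9-inh in H1650 and rose under it in PC9. It read 1328, 1322 and 1343 CPM in the H1650 BrM controls, 1180, 1227 and 1211 in the Tr-BrM controls and 810, 854.6 and 820.8 under S100A9-inh. The 3 groups did not overlap, and the S100A9-inh libraries were the lowest. KRT19 fell by 0.54 ± 0.0285 under S100A9-inh against the Tr-BrM controls (adjusted p = 1.21e-14). Its fall of 0.14 ± 0.0284 from BrM to Tr-BrM controls (adjusted p = 7.74e-05) came to -0.06 and did not pass when libraries were scaled by their size alone (adjusted p = 0.0678).
In PC9, KRT19 read 4128, 4163 and 4140 CPM in the BrM controls, 2683, 2550 and 2542 in the Tr-BrM controls and 3378, 3131 and 3054 under S100A9-inh. The S100A9-inh libraries lay between the other groups with no overlap. KRT19 fell by 0.68 ± 0.0333 in the Tr-BrM controls (adjusted p = 3.47e-17) and rose by 0.30 ± 0.0333 under S100A9-inh (adjusted p = 7.05e-09). Without the S100A9-inh library that stood apart the rise was 0.26 (adjusted p = 2.11e-17).

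KRT20, the gut and urothelial keratin, was close to absent and passed the filter on low counts in neither line. Its counts were 0, 4 and 5 in the H1650 BrM controls, 3, 1 and 2 in the Tr-BrM controls and 12, 21 and 1 under S100A9-inh, so that the last group overlapped both others. In PC9 they were 1, 0 and 0 in the BrM controls, 6, 14 and 4 in the Tr-BrM controls and 0, 7 and 5 under S100A9-inh. The 24 counts of the PC9 Tr-BrM controls against 1 in the BrM controls give a depth-adjusted ratio of 25.3 with a 95% counting interval from 4.12 to 1040, which covers counting error only. The ratio for S100A9-inh against Tr-BrM controls in PC9 was 0.486 (0.222 to 1.01), and S100A9-inh against BrM controls gave 12.3 (1.82 to 526). In H1650 the ratio was 0.606 (0.177 to 1.91) for Tr-BrM against BrM controls, 4.94 (2.05 to 14.4) for S100A9-inh against Tr-BrM controls and 2.99 (1.41 to 7.1) for S100A9-inh against BrM controls, where 1 of the 3 S100A9-inh libraries held a single count.

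Counted together, 1 of 5 tested members rose and 4 fell in H1650 Tr-BrM controls against BrM controls, where 32.2% of all genes tested rose and 31.7% fell. Under S100A9-inh against Tr-BrM controls in H1650, 2 rose, 1 fell and 2 did not pass, against 15.4% and 13.8% of all genes. Of all genes called there, 52.8% were higher, but 40.8% with library size alone, where 1 member rose and 1 fell. Against the BrM controls, the S100A9-inh libraries of H1650 had 1 member higher and 4 lower, against 32.5% and 31.2%. In PC9 Tr-BrM controls, 1 of 6 rose and 5 fell, against 29.6% and 30.3%. Under S100A9-inh in PC9, 2 rose, 1 fell and 3 did not pass, against 26.3% and 26.1%, with 3 rising and 0 falling under upper quartile scaling or library size alone. Against the PC9 BrM controls, 0 were higher and 5 lower in the S100A9-inh libraries, against 22.7% and 23.6%; the remaining one was KRT81, at 0.52 ± 0.301 (edgeR adjusted p = 0.164). At an unadjusted edgeR p under 0.05, and with DESeq2, 0 were higher as well. Over that span of groups, from BrM controls to S100A9-inh, KRT19 differed by -0.68 ± 0.0285 in H1650 and -0.38 ± 0.0332 in PC9, KRT7 by -0.27 ± 0.0364 and -0.59 ± 0.0353, and KRT80 by 0.52 ± 0.0282 and -1.16 ± 0.0383. The differences of KRT8 and KRT18, the common pair, were -0.23 ± 0.0268 and -0.30 ± 0.0328 in H1650 and -0.18 ± 0.0309 and -0.14 ± 0.0327 in PC9. Without PC9 S100A9-inh replicate 1 the PC9 values from BrM controls to S100A9-inh were -0.42 for KRT19, -0.64 for KRT7, -1.18 for KRT80, -0.23 for KRT8, -0.18 for KRT18 and 0.70 for KRT81, and the last still did not pass (edgeR adjusted p = 0.065). The median log2 change of the members between Tr-BrM and BrM controls was -0.26 in H1650 and -0.47 in PC9, where the median of all genes was 0 in both. The comparisons within a line share libraries and are not independent of each other.

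**Figure D2:**
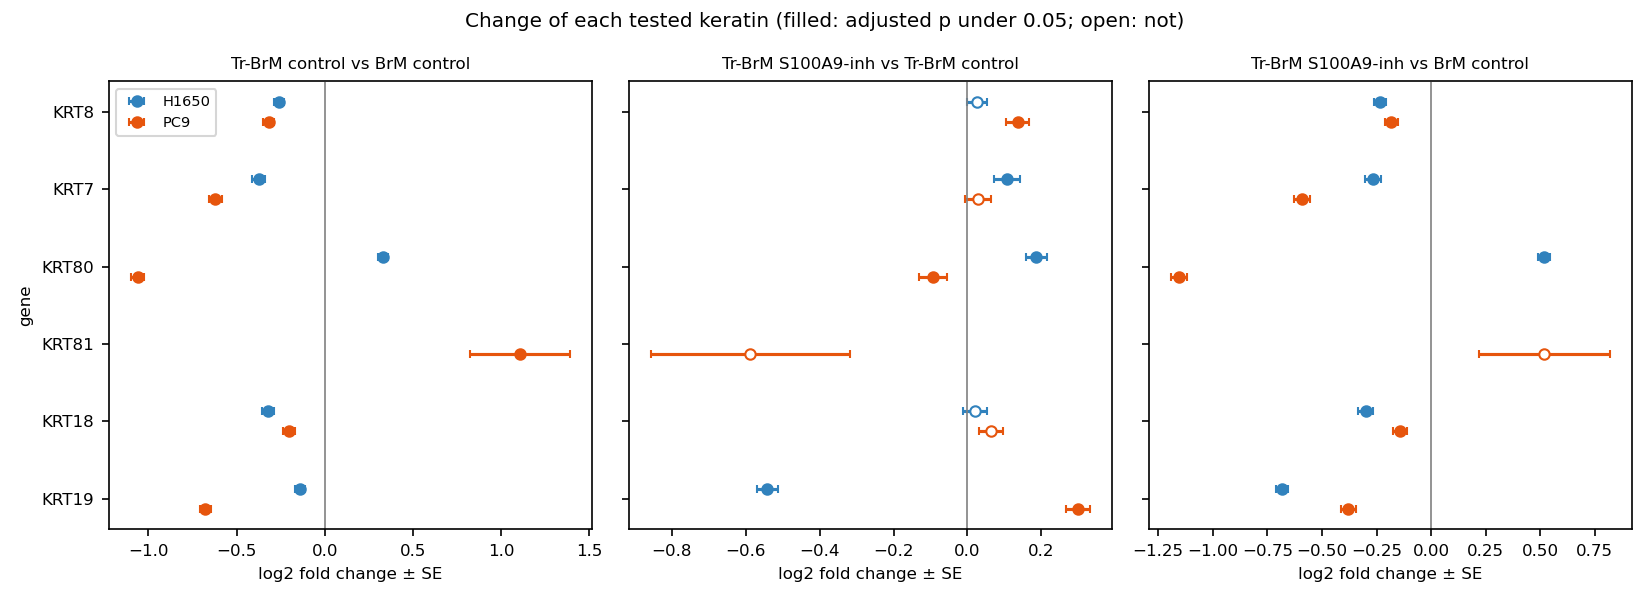
Change of the keratins tested in each line for the 3 comparisons (horizontal axes log2 fold change ± SE, n = 3 against 3; blue H1650, orange PC9; filled points past an adjusted p of 0.05). KRT80 in the first panel (0.33 and -1.06) and KRT19 in the second (-0.54 and 0.30) lie on opposite sides of 0, and KRT81 was tested in PC9 alone.

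The change itself differed between the lines for several members, as tested by an interaction term in 1 model of all 18 libraries (19076 genes; PC9 change minus H1650 change). For Tr-BrM against BrM controls the difference was -1.39 ± 0.0481 for KRT80 (adjusted p = 4.91e-26), -0.54 ± 0.0471 for KRT19 (adjusted p = 5.21e-13) and -0.25 ± 0.0558 for KRT7 (adjusted p = 0.000217). KRT81 and KRT18 had positive differences, of 1.47 ± 0.545 (adjusted p = 0.0206) and 0.12 ± 0.0498 (adjusted p = 0.0479). The KRT18 call was lost in 11 of 26 alternatives, and the KRT81 call without H1650 BrM control replicate 1 (1.13, adjusted p = 0.139), H1650 Tr-BrM control replicate 2 (1.29, adjusted p = 0.0664) or PC9 BrM control replicate 1 (1.26, adjusted p = 0.0522). KRT8, at -0.06 ± 0.0442, did not pass (adjusted p = 0.261), though it did with library size alone (-0.13, adjusted p = 0.00275). Of the 6 tested members, 2 had a positive and 3 a negative difference that passed, against 27.8% and 26.8% of all genes.
For S100A9-inh against Tr-BrM controls the difference was 0.84 ± 0.0472 for KRT19 (adjusted p = 2.69e-18) and -0.28 ± 0.0484 for KRT80 (adjusted p = 8.91e-06), or 0.79 (adjusted p = 1.18e-22) and -0.31 (adjusted p = 9.04e-08) without PC9 S100A9-inh replicate 1. KRT8 differed by 0.11 ± 0.0442 (adjusted p = 0.0355), a call lost in 19 of 26 alternatives, among them leaving out PC9 S100A9-inh replicate 1 (0.06, adjusted p = 0.206). KRT18 (0.05 ± 0.0498, or -0.01 without PC9 S100A9-inh replicate 1), KRT7 (-0.07 ± 0.0559) and KRT81 (-0.56 ± 0.542) did not pass, though KRT7 did without PC9 S100A9-inh replicate 1 (-0.13, adjusted p = 0.0203) or H1650 S100A9-inh replicate 3 (-0.14, adjusted p = 0.0318). Of the 6 members, 2 had a positive and 1 a negative difference, against 20.7% and 19.7% of all genes.

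At baseline, PC9 exceeded H1650. On the scale of all 18 libraries, KRT8 was at 14800 ± 142 CPM in PC9 BrM controls and 4866 ± 13.1 in H1650 BrM controls, KRT19 at 4467 ± 25.3 and 1233 ± 12, KRT18 at 4401 ± 60.6 and 1379 ± 32.7, and KRT7 at 3946 ± 91.7 and 1481 ± 42.2. The log2 differences were 1.61 ± 0.032, 1.86 ± 0.0343, 1.67 ± 0.0361 and 1.41 ± 0.0401, with adjusted p of 5.47e-30 or below. KRT80 was nearer, at 482 ± 4.85 and 408 ± 0.741 CPM, a log2 difference of 0.24 ± 0.0336 (adjusted p = 2.61e-08) that was 0.05 and did not pass with library size alone (adjusted p = 0.130). KRT81 was higher by 1.45 ± 0.374 (adjusted p = 0.000599), on 14, 28 and 21 counts in the PC9 and 13, 6 and 7 in the H1650 BrM controls. Its relative KRT86, from which its counts cannot be separated with certainty, was higher by 1.65 ± 0.311. Thus 6 of 6 tested members were higher in PC9 and 0 lower, against 38.9% and 41.9% of all genes, and DESeq2 and an unadjusted edgeR p under 0.05 gave 0 lower too. With library size alone 5 members were higher and 0 lower, and the median of all genes in this comparison moved from -0.06 to -0.25. Line and count table cannot be told apart here.
Across all 6 groups the order of KRT8, KRT18, KRT19 and KRT7 was the same at its top: PC9 BrM, PC9 Tr-BrM S100A9-inh, PC9 Tr-BrM control, then H1650 BrM. For KRT7 and KRT18 the PC9 S100A9-inh and Tr-BrM control libraries overlapped, and for KRT7, KRT8 and KRT18 so did those groups of H1650. For KRT80 the order was H1650 S100A9-inh (583 ± 7.09 CPM), H1650 Tr-BrM control (514 ± 7.46), PC9 BrM (482 ± 4.85), H1650 BrM (408 ± 0.741), PC9 Tr-BrM control (231 ± 3.31) and PC9 S100A9-inh (216 ± 11.7), with no overlap between neighbours.

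Because type I and type II proteins must pair, the balance of the members' transcripts was followed per kilobase of merged exons. Keratins outside the group were left out. The log2 ratio of KRT8 to KRT18 was 0.704, 0.767 and 0.699 in the H1650 BrM controls, 0.783, 0.831 and 0.740 in the Tr-BrM controls and 0.805, 0.735 and 0.829 under S100A9-inh, and all of these groups overlapped. In PC9 it was 0.640, 0.646 and 0.674, then 0.505, 0.560 and 0.555, then 0.624, 0.618 and 0.595. The PC9 groups did not overlap, with the Tr-BrM controls lowest, a difference of -0.11 from the BrM controls. The exact permutation test (two-sided, 3 against 3) gave p = 0.1, the smallest this design allows, and 0.171 after Benjamini-Hochberg adjustment over the 12 ratio tests.
The log2 ratio of the 4 type II members to the 3 type I members was 0.263, 0.308 and 0.275 in the H1650 BrM controls, 0.302, 0.251 and 0.246 in the Tr-BrM controls and 0.633, 0.594 and 0.617 under S100A9-inh. The S100A9-inh libraries stood above all others of the line, by 0.35 against the Tr-BrM controls (exact permutation p = 0.1, adjusted 0.171). Against the Tr-BrM controls, KRT19, a type I member, was lower in these libraries by 0.54. The type II members KRT80 and KRT7 were higher by 0.19 and 0.11, the KRT7 call being lost in 5 of 17 alternatives. The part of each in the ratio was not tested. The ratio leaves out KRT17, a type I keratin that was above KRT19 in CPM in both H1650 Tr-BrM groups. KRT17 was at 1445 CPM in the Tr-BrM controls and 2720 under S100A9-inh, and KRT19 at 1206 and 828.5. The type I keratin KRT16 was at 167.5 and 270.2 CPM, and the type II keratin KRT6A at 397.4 and 514.5. The balance of all type I and type II keratins was not tested. In PC9 the ratio was -0.040, -0.019 and -0.012 in the BrM controls, -0.014, 0.032 and 0.025 in the Tr-BrM controls and -0.056, -0.077 and -0.072 under S100A9-inh, which lay below both. The size of the ratio depends on the length used: KRT8 to KRT18 was 1.65 in the H1650 BrM controls per kilobase of merged exons, 2.86 per kilobase of principal transcript and 3.53 in counts.

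**Figure D3:**
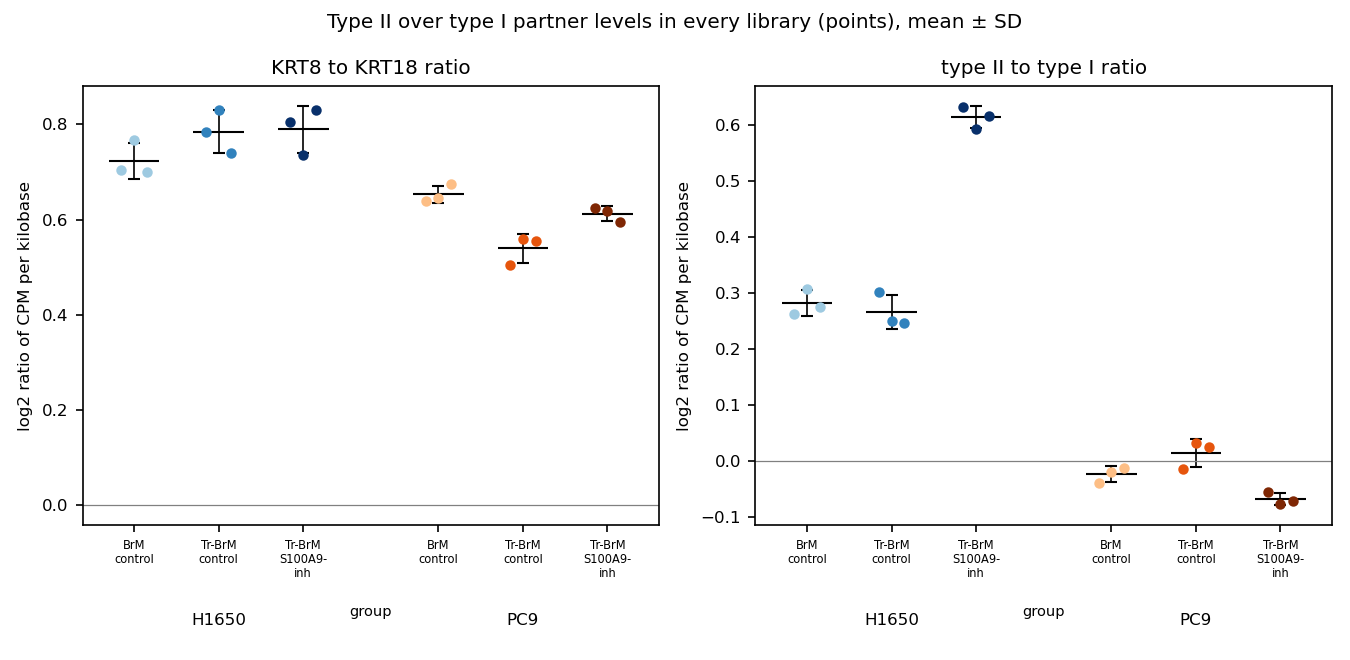
Log2 ratio of KRT8 to KRT18 (left) and of the 4 type II to the 3 type I members (right) in every library, from CPM per kilobase (horizontal axis the groups; points libraries, lines and bars mean ± SD, n = 3). On the right the H1650 S100A9-inh libraries sit at 0.594 to 0.633, above the 0.246 to 0.308 of the other H1650 libraries.

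Keratins outside the group were followed for comparison. The list of 61 other keratin rows holds 48 genes and 13 pseudogenes, the latter summing to 6.286 CPM at most. The summed level of the 61 rows was 851.7 to 864.8 CPM in the H1650 BrM controls, 2148 to 2236 in the Tr-BrM controls and 3538 to 3796 under S100A9-inh, while the 7 members summed to 10078 to 10173, then 8409 to 8791, then 8329 to 8652. Other keratins thus made up 7.79 to 7.86% of all keratin CPM in the BrM controls, 20.1 to 20.9% in the Tr-BrM controls and 29.8 to 31.1% under S100A9-inh. In PC9 the other keratins summed to 134 to 143.1 CPM, 672.3 to 696.8 and 146.2 to 161.7, or 0.512 to 0.551%, 3.32 to 3.37% and 0.692 to 0.753% of keratin CPM. Their summed level under S100A9-inh was thus above that of the Tr-BrM controls in every H1650 library and below it in every PC9 library. In H1650 most of this sum was 1 gene, KRT17, at 1445 ± 30.9 CPM in the Tr-BrM controls and 2720 ± 95.3 under S100A9-inh.
Of 21 other keratins tested in H1650, 11 rose and 2 fell in Tr-BrM controls (median log2 change 0.95), where 32.2% and 31.7% of all genes did, and 5 rose and 6 fell under S100A9-inh (median 0.09), where 15.4% and 13.8% did. Of 17 tested in PC9, 14 rose and 1 fell in Tr-BrM controls (median 1.41), beside 29.6% and 30.3% of all genes, and 0 rose and 12 fell under S100A9-inh (median -1.10, and 0 rose at an unadjusted edgeR p under 0.05), beside 26.3% and 26.1%. The median of all genes was 0 in each of these comparisons.

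**Figure D4:**
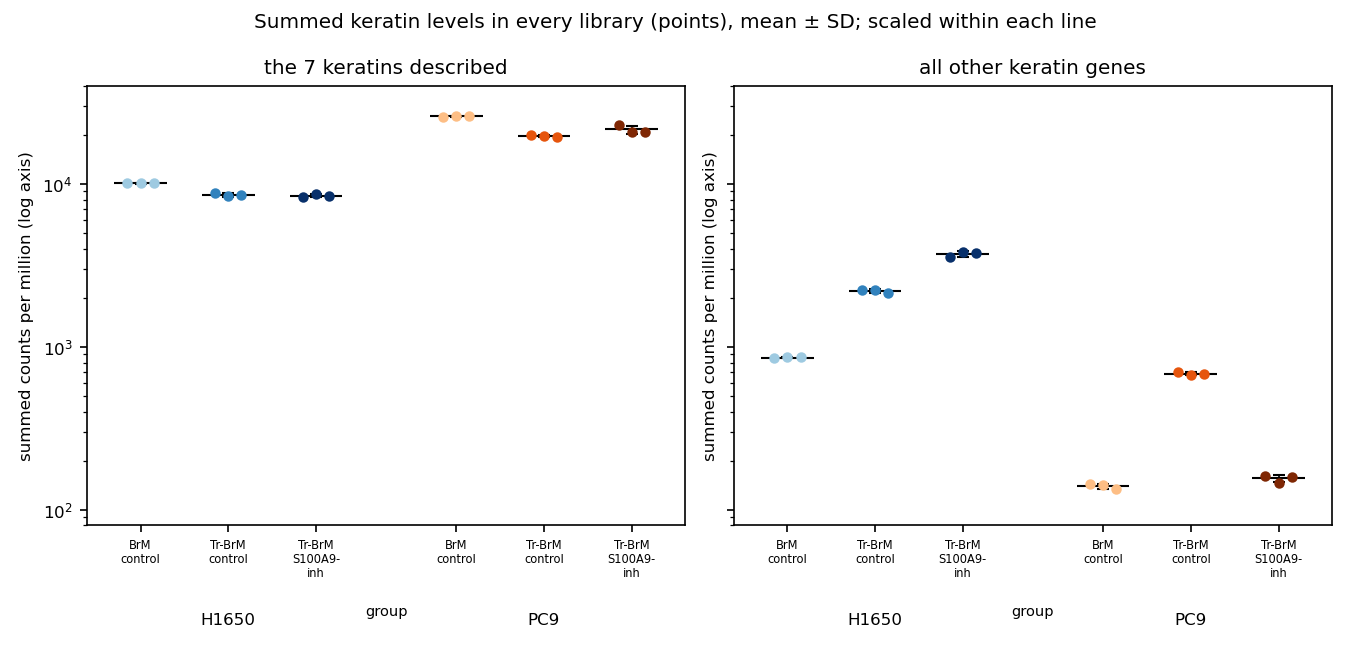
Summed level of the 7 keratins described (left) and of the 61 other keratin rows (right) in every library, in CPM scaled within each line (vertical axis log; points libraries, lines and bars mean ± SD, n = 3). The left sums are highest in the BrM controls of either line, the right sums rise from 851.7 to 864.8 CPM in H1650 BrM to 3538 to 3796 under S100A9-inh, and in PC9 the right sums peak at 672.3 to 696.8 CPM in the Tr-BrM controls.

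In H1650 the leading other keratin was KRT16 in the BrM controls and KRT17 in both Tr-BrM groups. KRT17, a keratin of basal and activated epithelia, was at 75.4 ± 2.17, 1445 ± 30.9 and 2720 ± 95.3 CPM in the BrM, Tr-BrM control and S100A9-inh groups, so that its CPM lay above those of KRT18 and KRT7 in both Tr-BrM groups. KRT17 rose by 0.91 ± 0.0298 under S100A9-inh (adjusted p = 6.16e-19). KRT16, a type I keratin of activated epidermis, went from 540 ± 3.81 CPM in BrM to 168 ± 8.84 in Tr-BrM controls and 270 ± 18.4 under S100A9-inh, and KRT6A from 91.7 ± 1.83 to 397 ± 10.6 and 515 ± 21.4.
In PC9 KRT15, a basal type I keratin, led the other keratins in the BrM controls (47.2 ± 2.1 CPM) and under S100A9-inh (37.5 ± 3.65). In the PC9 Tr-BrM controls those with the highest CPM were KRT23 and KRT6B. Over the BrM, Tr-BrM control and S100A9-inh groups KRT23, a type I keratin, was at 0.112 ± 0.0745, 160 ± 1.82 and 15.7 ± 0.775 CPM, and KRT6B at 26.1 ± 1.08, 145 ± 2.71 and 17.6 ± 0.598. Under S100A9-inh the log2 change was -3.35 ± 0.0599 for KRT23, -3.04 ± 0.0568 for KRT6B, -4.46 ± 0.119 for the mucosal keratin KRT4 and -5.74 ± 0.158 for the basal keratin KRT5. KRT6A, KRT6B, KRT16 and KRT17 have near-identical copies, so reads can be split between them.
The difference between lines in the response to S100A9-inh was -4.52 ± 0.0907 for KRT17 (adjusted p = 7.02e-33) and -2.99 ± 0.0782 for KRT6A (adjusted p = 3.2e-29), where that of KRT19 was positive.

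Keratin filaments are anchored at desmosomes and hemidesmosomes by plakins, plakophilins, desmosomal cadherins and integrin α6β4. Of 19 such linker genes tested in H1650, 12 rose and 6 fell in the Tr-BrM controls (32.2% and 31.7% of all genes did), with ITGB4, the hemidesmosomal integrin subunit, at 0.94 ± 0.0309 and the desmosomal cadherins DSG3 at -2.41 ± 0.0502 and DSC3 at 1.75 ± 0.0555. In PC9, 4 of 16 rose and 11 fell (29.6% and 30.3% of all genes): the cytolinker DST changed by -1.09 ± 0.0406 and EPPK1, epiplakin, by 1.17 ± 0.0514. Under S100A9-inh, 6 rose and 6 fell in H1650 (15.4% and 13.8% of all genes), but 4 and 9 with library size alone. In PC9, 7 rose and 5 fell (26.3% and 26.1% of all genes), or 9 and 5 with upper quartile scaling or library size alone, and DSP, desmoplakin, rose by 0.51 ± 0.0359.
Among 15 other intermediate filament genes, 7 of 13 tested rose and 5 fell in H1650 Tr-BrM controls, and 3 of 9 rose and 3 fell in PC9. The PC9 shares are close to those of all genes (29.6% and 30.3%), and in H1650 32.2% and 31.7% of all genes were called. The neural filament gene INA changed by 1.21 ± 0.0332 in H1650, and the stem cell filament gene NES by 1.63 ± 0.164 in H1650 and -3.02 ± 0.159 in PC9. VIM, the mesenchymal filament gene, was at 23.3 ± 1.07, 20.2 ± 1.57 and 19.6 ± 2.79 CPM in the H1650 groups and 3.21 ± 0.634, 1.10 ± 0.323 and 4.32 ± 0.679 CPM in those of PC9.
Of 15 transcription factors listed for their part in epithelial gene programmes, 2 of 8 tested rose and 2 fell in H1650 Tr-BrM controls (4 and 2 with library size alone), against 32.2% and 31.7% of all genes, with TFAP2C at 1.42 ± 0.0368. In PC9, 4 of 10 rose and 3 fell, against 29.6% and 30.3% of all genes, with ELF3, an epithelial ETS factor, at 1.02 ± 0.0556 and KLF5 at 0.78 ± 0.0509.

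Markers of other cell types moved in some of the same comparisons. Of 8 fibroblast markers, 7 rose in H1650 Tr-BrM controls, where 32.2% of all genes tested rose and 31.7% fell. Their summed level was 24.07 to 24.84 CPM in BrM, 169.2 to 191.1 in Tr-BrM controls and 187.6 to 196.6 under S100A9-inh. In the Tr-BrM controls most of this sum was COL3A1, at 129 CPM. Of 5 astrocyte markers 4 rose there and 1 fell, from 31.7 to 40.47 CPM to 225.9 to 236.8 in sum. SLC1A3 and GFAP led this sum. Of 4 mesothelial markers tested 3 fell there and 1 rose, from 407.4 to 416 CPM to 104.4 to 109.7 in sum. Of 7 leukocyte markers tested 5 rose there and 1 fell (median log2 change 1.86), while their sum was 90.14 to 92.72 CPM in BrM and 89.97 to 95.19 in Tr-BrM controls, most of it CSF1R (85.9 ± 1.45 and 77.5 ± 2.76 CPM). Of 5 endothelial markers 2 rose and 0 fell, with sums of 6.368 to 6.959 and 8.502 to 10.04 CPM. Of 3 neuronal markers tested 1 fell and 2 did not pass, with sums of 39.16 to 40.78 and 17.93 to 18.41 CPM. In PC9 the fibroblast sum was 26.7 to 27.17 CPM in BrM and 12.83 to 15.1 in Tr-BrM controls, with 4 of the 8 genes at 0 in all 3 libraries of the latter. The PC9 astrocyte sum was 15.37 to 16.53 CPM in BrM controls, 97.75 to 102.8 in Tr-BrM controls and 34.16 to 37.66 under S100A9-inh, nearly all of it SLC1A3 (97.6 ± 3.05 CPM in Tr-BrM controls), with GFAP at 0.151 ± 0.0453 CPM there. The PC9 endothelial sum went from 22.85 to 26.58 CPM in BrM to 40.65 to 41.35 in Tr-BrM controls, with 3 of 3 tested higher, and the mesothelial sum from 198.7 to 209.6 to 304.6 to 319.5, with 2 of 3 higher and 1 lower. Of 3 leukocyte markers tested in PC9, 2 rose and 1 fell, with a sum of 32.12 to 32.8 CPM in BrM and 15.6 to 16.78 in Tr-BrM controls. The 1 neuronal marker tested in PC9 did not pass. Of all genes tested in PC9, 29.6% rose and 30.3% fell in the Tr-BrM controls. The summed lung epithelial markers were 1492 to 1522, 1786 to 1810 and 1662 to 1667 CPM in the H1650 groups and 1179 to 1198, 1066 to 1097 and 929.3 to 958.3 CPM in those of PC9. These sums rest on few of the 8 genes, whose median was 0.195, 0.682 and 0.768 CPM in the H1650 groups. In the PC9 groups that median was 0.144, 6.31 and 0.442 CPM. The part of such cells or programmes in the keratin differences was not tested. In such bulk libraries, fewer cells of a type and less RNA per cell cannot be told apart.

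The genes whose levels followed each member most closely over the 6 groups were found by the root mean square distance between centred log2 profiles, among 11928 candidates. The nearest were MNT to KRT7 (0.068 log2 units), GPR153 to KRT8 (0.049), HGS to KRT18 (0.041), MOCOS to KRT19 (0.083) and MTRNR2L12 to KRT80 (0.062). BAIAP3 was among the 3 nearest to both KRT8 (0.056) and KRT18 (0.043). The 7 members were left out of the candidates, so how closely they follow each other was not measured here. No keratin outside the 7 was among the 3 nearest of any of these 5 members. The 6 group means share their libraries' depth and line, so these distances are a description.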

How the data were processed

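Total poly-A selected RNA of 18 libraries was sequenced with TruSeq-compatible libraries, and the authors deposited raw counts per Ensembl gene, 1 table per line, with no normalization, on GRCh38 per the submitters' processing notes, which also name STAR, R 4.0.1 and DESeq2 1.28.1. No source used here names the counting tool, its use of strand or the annotation release.

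The test was the quasi-likelihood F test of edgeR (4.0.16, run under R 4.3.3) on group, after filterByExpr and TMM scaling (Benjamini-Hochberg adjustment over all genes tested, threshold 0.05), with 9 libraries per line in a fit. The 18-library fit used the 60399 identifiers found in both tables, and line and table cannot be told apart in it. The SE is the absolute log2 fold change divided by the square root of F. CPM are scaled by TMM. Ratios between genes were divided by the length of merged GENCODE 29 exons and tested by exact permutation. The steps were tested on simulated data with 200 changed genes.

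The text names all 7 members, S100A9, the KRT81 neighbours KRT83 and KRT86, up to 4 genes per list with the smallest adjusted p at 5 CPM or more, and the 3 genes nearest each member; EPCAM, CDH1, CLDN4, COL3A1, SLC1A3, CSF1R, KRT15 and KRT87P were named after their values were seen. The members and lists were chosen with earlier results of these data known. Alternatives were DESeq2 1.42.0, other scalings, no filter on low counts, summed rows, the 2 groups alone and leaving out each library. No 2 libraries of a group held identical counts. Nothing says that replicates were separate cultures, and the depth of a library limits KRT20 and KRT81, at 0 to 51 counts. A coding sequence comparison is not reported here.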

Additional observations from a re-analysis of the deposited data

Results flagged for a closer look

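The response of single keratins differed between the lines by the interaction term of the edgeR fit (PC9 change minus H1650 change, log2 scale, 3 libraries per group). From BrM to Tr-BrM controls the differences were -1.3928 for KRT80, -0.5366 for KRT19, -0.2471 for KRT7, 1.4708 for KRT81 and 0.1152 for KRT18. Of the 6 keratins tested, 2 had a positive and 3 a negative difference that passed there, beside 27.8% and 26.8% of all genes. From Tr-BrM controls to S100A9-inh the differences were 0.8443 for KRT19, -0.2763 for KRT80 and 0.1143 for KRT8. Here 2 of 6 were positive and 1 negative, beside 20.7% and 19.7% of all genes, so this count is not far from those shares. KRT80 (0.33 in H1650, -1.06 in PC9) and KRT19 (-0.54 and 0.30 under S100A9-inh) had opposite signs in the lines, with no overlap between the groups compared in either line. The differences for KRT18 and KRT8 are small and were lost in 11 and 19 of 26 alternatives. That for KRT81 rests on 6 to 13 counts per H1650 library, too few for the filter of that line. It did not pass without H1650 BrM control replicate 1 (edgeR adjusted p = 0.139), H1650 Tr-BrM control replicate 2 (0.0664) or PC9 BrM control replicate 1 (0.0522).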

How the results depend on the processing

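Of 1020 values of single keratins under alternatives, 960 kept their side of the threshold, 51 lost the call and 9 gained it. The sign changed in 7, all of values that had not passed, and in 0 that had. When edgeR calls also had to reach a log2 change of 1 in size, 0 keratins were called in each of the 3 H1650 comparisons, in PC9 S100A9-inh against Tr-BrM controls and in the difference between lines under S100A9-inh. Under the same rule 2 were called in PC9 Tr-BrM against BrM controls, 1 in PC9 S100A9-inh against BrM controls and 2 in the difference between lines from BrM to Tr-BrM controls. Of all 17937 genes tested in H1650, 3690 were called in Tr-BrM against BrM controls. For S100A9-inh, 366 were called against Tr-BrM controls and 3505 against BrM controls. In PC9 the numbers were 2053, 1263 and 1197 of 16169 genes, in the same order. For the differences between lines they were 4226 from BrM to Tr-BrM controls and 1727 under S100A9-inh, of 19076 genes. Leaving out each library, the H1650 log2 ratio of KRT8 to KRT18 between S100A9-inh and Tr-BrM controls ranged from -0.0175 to 0.0320 around 0.005, with a change of sign in 3 cases. The count of keratins called ranged from 2 to 4 over these omissions for S100A9-inh against Tr-BrM controls in either line. With all libraries, 15.4% of all genes were higher and 13.8% lower in that H1650 comparison, and 26.3% and 26.1% in that of PC9. No paired analysis was possible because the labels give the groups no shared replicate numbers. Depth limits KRT20 in both lines and KRT81 in H1650.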
